A study of Arabidopsis thaliana with 6 samples.

Results

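The late response of Arabidopsis thaliana to salicylic acid (SA) was set against the early one on 4 of the 6 microarrays of the study. The late arrays are those of plants treated for 10 h and for 24 h, and the early arrays are those of plants treated for 2 h and for 5 h. The 2 arrays of each group were taken by their labelled time. Plants of the Columbia accession, 28 days old and sampled whole without their roots, had received 5 mM SA. On each array their RNA was labelled with Cy5 and compared with RNA of untreated plants of the same accession and age, labelled with Cy3. Every value below is therefore the log2 ratio of treated over untreated plants at that time, and a late minus early difference compares 2 such ratios. The other 2 arrays hold plants that overexpress SIBA, the gene SIB1 (AT3G56710), each against a plant with the vector, and serve here for 1 side description. The labels do not say how many plants were pooled, whether the untreated RNA was shared between arrays, or at which hour of the day plants were harvested. The design asks which processes differ between early and late treatment.

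SA is the hormone that plants make when biotrophic pathogens attack. Its receptors NPR1, NPR3 and NPR4 act with TGA transcription factors on genes such as PR1, the textbook late marker of the response. Glutathione transferase and glucosyltransferase genes are known to answer SA sooner, together with genes of the general response to oxidants. SA is also inactivated by conjugation to glucose, and it acts against jasmonate signalling.

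In order of time, the median Cy5 signal above local background was 21.5, 206.5, 300 and 404 (4 arrays in all, which sets the precision). The 2 h array was the dimmest and its file has another column layout than the other 3. Among the 25% of probes dimmest at 2 h the SD of the ratios at the 4 times was 0.128, 0.288, 0.380 and 0.354, so the ratios of dim probes lay closer to 0 at 2 h. Among the 25% brightest the SDs were 1.02, 1.11, 1.07 and 0.898. The scanner software marked 10, 24, 25 and 1722 spots as outliers at 2, 5, 10 and 24 h, and these were left out. Of 5 shoot markers all were brighter than the median probe on each of the 4 arrays. Of 7 root, 8 flower and 6 seed markers, at most 3, 1 and 0 were above that median on any array. In tissue of many cell types, fewer cells of a type and less RNA per cell cannot be told apart.

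No probe passed the test of late minus early. With limma's moderated test and Benjamini-Hochberg adjustment, 0 of 21280 probes (0.0%) were called higher late and 0 (0.0%) lower, and the smallest adjusted p was 0.999. At an unadjusted p under 0.05 there were 855 probes (4.02%). No time has a replicate, so the error in this test is the spread between 2 h and 5 h and between 10 h and 24 h. That spread was wide. Over the 19534 probes with a value on all 4 arrays, the SD of the 10 h minus 24 h difference was 0.685. That of the 2 h minus 5 h difference was 0.524, and that of the late mean minus the early mean 0.383. The last compares means of 2 arrays, which vary less than single arrays, so its size cannot be set directly against the other 2. Differences between the groups are therefore described by size and by whether the groups overlap, and none is a tested change.

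Both late ratios were at least 2-fold above both early ratios for 48 of these 19534 probes (0.246%), and at least 2-fold below them for 73 (0.374%). These are called separated here. Scaling the arrays to equal spread changed the counts to 25 and 236. Under that scaling 14 of the 48 and 59 of the 73 stayed separated, so the genes higher late depend more on the scaling. The counts were 69 and 135 from the ratios that the scanner software wrote, and 20 and 69 among bright probes alone. Without the 2-fold margin, the late ratios lay above the early ones for 13.6% of probes and below them for 13.2%. The 2 late arrays were not more alike than arrays of different groups. Pearson's r over probes was 0.51 between 10 and 24 h and 0.67 between 2 and 5 h. Between groups it was 0.74 (5 and 10 h), 0.64 (5 and 24 h), 0.62 (2 and 24 h) and 0.48 (2 and 10 h). The 2 directions had different forms by these ratios, which are compressed for dim probes at 2 h. Of the 48 genes higher late, 45 were at least 2-fold above the control at both late times, and 37 were within 2-fold of the control at both early times. Of the 73 genes lower late, 56 were at least 2-fold above the control at both early times. Of these, 26 were still at least 2-fold above it at both late times and 22 were within 2-fold of it. A further 14 of the 73 were at least 2-fold below the control at both late times. In 0 genes were both late ratios at least 2-fold on one side of the control and both early ratios at least 2-fold on the other. The margin cut through a continuous range, with AT3G45310 just inside it (1.0) and KTI1 just outside (0.994) among genes higher late, and AT3G06760 (1.01) and AT2G25250 (0.995) among genes lower late.

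**Figure D1:**
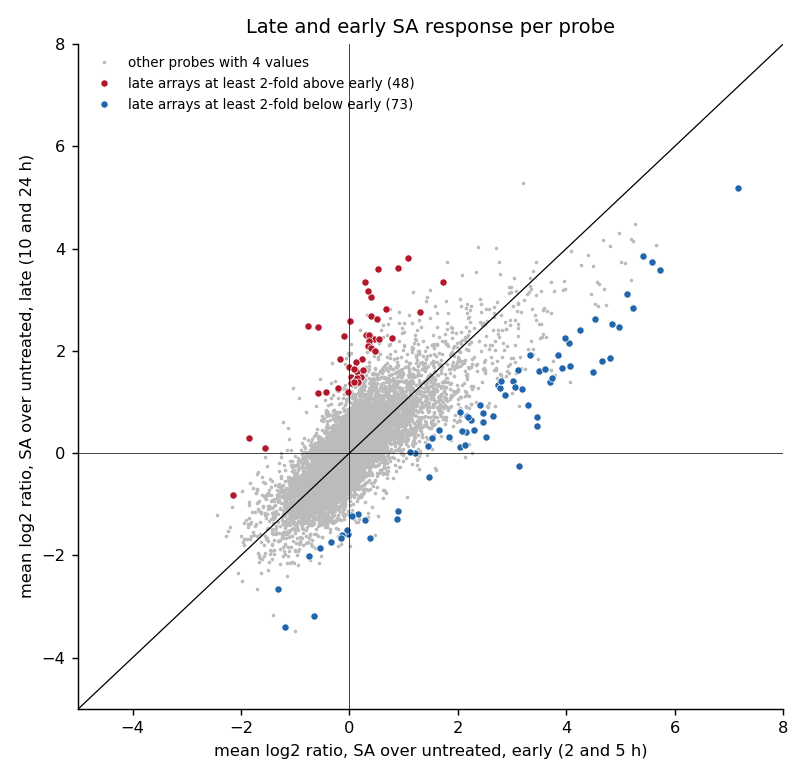
Mean log2 ratio of SA-treated over untreated plants at the late times (10 and 24 h, vertical axis) against the mean at the early times (2 and 5 h, horizontal axis), 1 point per probe with values on all 4 arrays. The 48 separated probes higher late (red) lie mostly above an early mean near 0, while most of the 73 separated probes lower late (blue) lie at early means above 1.

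The genes higher late were dimmer at 2 h, with a median net Cy5 signal of 46.9, than the genes lower late, with 1357. An offset of 50 was added to both channels before ratios were taken, which compresses the ratios of dim spots. For dim genes at 2 h, a small change and a dim spot can therefore not be told apart. How many 2 h ratios the offset holds within 2-fold was not tested. With an offset of 16 in its place, 42 of the 48 and 72 of the 73 were also separated. In 33 of the 48 and in 72 of the 73, no spot on the 4 arrays was saturated, replaced by a surrogate value or below the mark for well above background. At 2 h this last mark cannot single out dim spots. On that array 0 spots of either channel were below it, although 5746 treated and 1730 control spots were surrogates. Leaving out an array removes a condition that a probe has to meet, so the counts were larger. Without the 2 h array 127 probes were separated higher late (0.665%) and 204 lower (1.07%), and with the 5 h array left out 262 (1.34%) and 265 (1.36%). Omitting the 10 h array gave 203 (1.04%) and 384 (1.97%), and omitting the 24 h array 352 (1.69%) and 276 (1.32%).

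PR1, the marker of the NPR1 branch of the response, was among the genes furthest apart. Its log2 ratios were 2.47 and 2.89 late (10 and 24 h) against 0.10 and 0.71 early (2 and 5 h), with a control replaced by a surrogate value at 2 h. The difference was 2.27 ± 0.30 (SE, here and below the moderated SE of limma, n = 2 arrays a group). PR4, a hevein-like defence protein counted below in the jasmonate and ethylene list, had 0.21, -0.21, 2.00 and 3.17 at the 4 times. AED1 (AT5G10760), an apoplastic aspartyl protease of systemic resistance, had 0.12, -0.18, 1.18 and 1.19. TI1, a trypsin inhibitor, had 0.12, 0.58, 2.15 and 4.19. In each of these 4 genes the lower late ratio was more than 2-fold above the higher early one.

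The largest separation belonged to AT2G37130, a class III peroxidase gene, with log2 ratios of -0.14, -1.38, 2.56 and 2.41 at 2, 5, 10 and 24 h and a difference of 3.24 ± 0.48 (SE). A second peroxidase gene, AT5G64120, was already high early and higher late, with 1.80, 1.66, 2.89 and 3.80. The type II peroxiredoxin gene TPX2 (AT1G65970) had 0.08, 0.72, 2.48 and 3.61, with a surrogate control value at 2 h. EBP, an ethylene response factor also known as RAP2.3, had -1.13, -0.04, 1.67 and 3.28, and its treated channel was saturated at 24 h, so that this last ratio is a lower bound. PAP17, a purple acid phosphatase of phosphate starvation and senescence, had -0.10, -0.09, 1.93 and 2.66 (difference 2.39 ± 0.30, SE).

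Further separated genes higher late are given here with their known roles. These genes, and the others named below beyond the 10 furthest apart in each direction and beyond the gene lists, were picked after their values were seen. The vacuolar protease genes APA1 and GAMMA-VPE stood at 1.08 and 1.26 (APA1) and 1.16 and 1.36 (GAMMA-VPE) at 10 and 24 h. Early they were slightly below the control, at -0.56 and -0.61 (APA1) and -0.18 and -0.25 (GAMMA-VPE). The sucrose exporter gene SWEET11 had -0.46, -0.42, 1.15 and 1.22 at the 4 times. NRT1.7, which moves nitrate out of old leaves, had 0.49, -0.25, 2.01 and 1.54. The plasma membrane proton pump gene HA2 had -0.49, 0.06, 1.23 and 1.31. In the peroxisome, the fatty acid oxidation gene PKT3 (0.62, 0.32, 1.67 and 2.31) and the citrate synthase gene CSY3 (0.40, -0.25, 1.43 and 1.85) were separated in the same direction. The mitochondrial formate dehydrogenase gene FDH had 0.02, 0.87, 2.24 and 2.24. CYP89A9, which oxidises breakdown products of chlorophyll, had 0.14, 0.45, 1.81 and 2.81.

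In 3 of the 48, both early ratios were at least 2-fold below the control. ESM1, which steers glucosinolate breakdown towards isothiocyanates, had 0.09 and 0.50 late and -2.02 and -1.68 early. CYP71B28, a cytochrome P450 gene, had 0.33 and -0.14 late and -1.53 and -1.61 early. The B-box zinc finger gene BBX15 had -2.33, -1.96, -0.84 and -0.79 at the 4 times, and so remained below the control late. ESM1 and CYP71B28 were thus within 2-fold of the control at both late times.

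**Figure D2:**
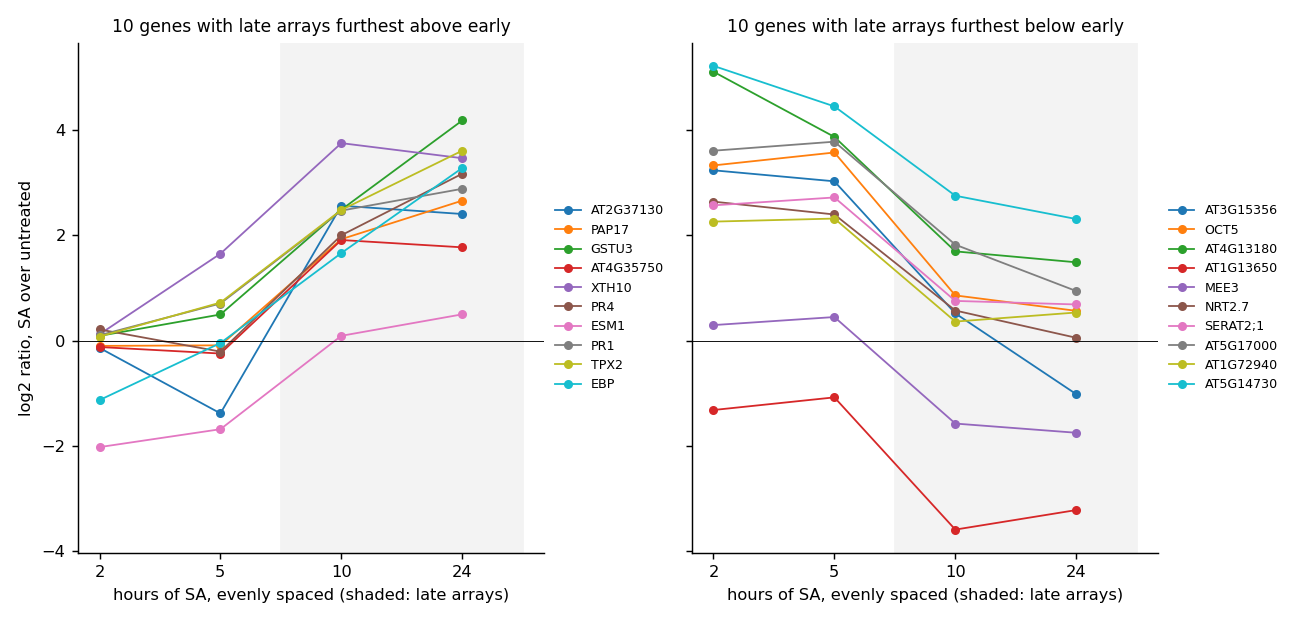
Log2 ratio of SA-treated over untreated plants at 2, 5, 10 and 24 h (horizontal axis, evenly spaced; late arrays shaded) for the 10 genes with the largest separation higher late (left) and lower late (right), 1 line per gene. PR1 has 2.47 and 2.89 late and 0.10 and 0.71 early; bounds from surrogate or saturated spots (GSTU3, XTH10, PR1 and TPX2 at 2 h, GSTU3 also at 5 and 10 h, EBP at 24 h) are drawn at their computed value.

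The genes lower late were led by genes already high at 2 h. AT3G15356, a legume lectin gene, had log2 ratios of 3.24, 3.03, 0.52 and -1.01 at 2, 5, 10 and 24 h, a difference of -3.38 ± 0.58 (SE). OCT5, an organic cation transporter gene, had 0.86 and 0.57 late and 3.33 and 3.58 early (difference -2.74 ± 0.19, SE). AT5G14730, an uncharacterised gene, had 5.22, 4.45, 2.75 and 2.31. In OCT5 both late ratios were within 2-fold of the control, while AT5G14730 was still more than 4-fold above it at both late times.

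Several of these early genes encode enzymes that reduce, conjugate or oxidise small molecules. The alkenal reductase gene AER and its neighbour AT5G17000, annotated as a quinone oxidoreductase, had 1.34 and 1.32 (AER) and 1.82 and 0.94 (AT5G17000) late. Early they had 2.71 and 2.77 (AER) and 3.61 and 3.78 (AT5G17000). The 2 genes are related in sequence and could share signal. AT4G13180, a short-chain dehydrogenase gene, had 5.11, 3.87, 1.70 and 1.49. OPR1, a 12-oxophytodienoate reductase outside jasmonate synthesis, had 5.31, 4.0, 2.80 and 0.82. The glucosyltransferase genes UGT75B1 (5.26, 4.35, 2.89 and 0.84), UGT85A1 (5.40, 5.77, 4.31 and 3.16) and GT72B1 (3.19, 3.04, 1.28 and 1.97) were all separated lower late. MO1, a monooxygenase gene, had 3.93, 3.76, 2.56 and 1.26. GSTF8, a long-known SA-responsive glutathione transferase, had 3.61, 3.60, 2.06 and 1.24. ADC2, an arginine decarboxylase of polyamine synthesis, had 3.64, 4.21, 2.30 and 1.01.

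Regulators made up another group. STZ, the zinc finger repressor ZAT10, had 6.07, 4.38, 3.08 and 2.59. The 3 NAC transcription factor genes ATAF2 (6.19, 5.28, 4.21 and 2.93), NAC102 (4.81, 4.26, 3.09 and 2.15) and NAC032 (3.71, 2.65, 1.41 and 1.09) belong to a single NAC subfamily and were all separated lower late. Other NAC genes were separated the other way: NAC019 had 0.24, 0.49, 2.05 and 2.26, NAC047 had -0.07, 1.08, 3.00 and 2.25 with a dim control at 10 h, and NAC042 had 0.13, 0.39, 1.72 and 1.53. TIFY7, the jasmonate repressor JAZ9, had 2.12, 2.21, 0.80 and 0.67. The deadenylase gene CAF1b had 3.24, 2.79, 1.65 and 1.18. The TIR-NBS resistance genes AT1G72940 (2.26, 2.32, 0.36 and 0.54) and AT1G72920 (2.03, 2.45, 0.58 and 0.72) are related in sequence and could share signal.

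The 14 genes at least 2-fold below the control at both late times hold several chloroplast and growth genes. LHCB2.3, of the light harvesting antenna, had -3.97 and -2.42 late and -0.45 and -0.86 early. CA1, the main chloroplast carbonic anhydrase, had -0.08, -0.18, -1.88 and -1.31. The plastid fatty acid desaturase gene FAD8 had -0.66, -0.42, -1.89 and -1.80. MEE3, a small MYB protein gene, was below the control late (-1.57 and -1.75) and above it early (0.30 and 0.45). ARR7, a repressor of cytokinin signalling, had -0.19, 0.10, -1.37 and -1.62. The thionin genes AT1G66100 (-0.25, 0.18, -1.63 and -1.55) and THI2.2 (0.52, 0.04, -1.44 and -1.16) followed the same course. AT1G13650 was below the control throughout, at -1.32, -1.08, -3.59 and -3.22.

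Gene lists show how far these single genes stand for their pathways. For each list the median of its members' late minus early differences is given, beside -0.01 for all 21280 probes. The count of members whose late and early ratios do not overlap is given beside the shares of 13.6% (late above) and 13.2% (late below) for all probes. No member of any list passed the test.

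**Figure D3:**
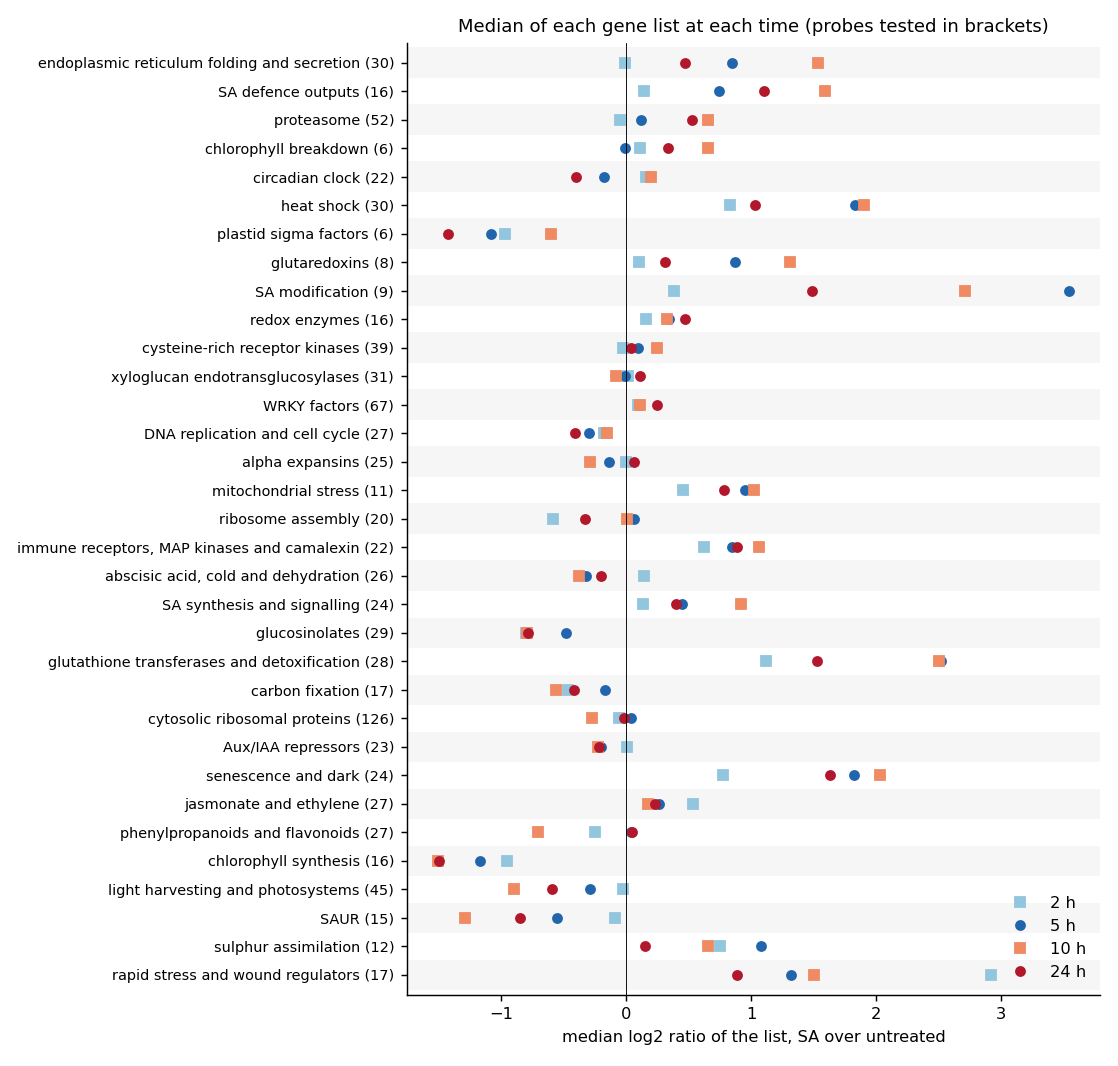
Median log2 ratio of SA-treated over untreated plants for each gene list at 2 h (light blue squares), 5 h (blue circles), 10 h (orange squares) and 24 h (red circles), lists ordered by their median late minus early difference. The proteasome and defence output lists have both late medians above both early ones, the sulphur list and the light harvesting list both below, and the rapid stress regulators are highest at 2 h (2.92).

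SA defence outputs had a median difference of 0.64 over 16 genes, with list medians of 0.14, 0.74, 1.60 and 1.10 at 2, 5, 10 and 24 h. Of 14 members with 4 values, 6 had both late ratios above both early ones (42.9%) and 1 had both below (7.14%). DOX1, an alpha-dioxygenase of fatty acids, had 0.65 and 3.20 late and -0.02 and 0.01 early, with a surrogate value of the treated channel at 2 h, so that its difference lay mainly at 24 h. ACD6, an ankyrin protein that promotes SA defence, peaked at 10 h (-0.50, 0.69, 1.48 and 0.49). PR5 had 0.16, -0.25, 0.58 and 0.82, and PR2, named BGL2 in the reference table, had 0.31, -0.05, 0.01 and 0.20, so neither of these classical markers had a late minus early difference of 2-fold. NUDT7, a hydrolase that restrains defence, went the other way with 3.36, 2.75, 1.64 and 0.93. SIB1 had 4.46, 3.71 and 2.89 at 2, 5 and 10 h, and its 24 h spot was an outlier. With the arrays scaled to equal spread the median of the list was -0.01.

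Several named regulators close to the SA receptor were high at all 4 times. GRX480, a glutaredoxin that binds TGA factors, had 5.59, 4.88, 4.04 and 4.26, and GRXS13 had 4.78, 5.61, 4.72 and 3.64, with both late ratios below both early ones in each. NIMIN1, which binds NPR1, had 4.61, 5.34, 4.88 and 3.74. WRKY70 alternated (2.87, 1.51, 3.75 and 1.53), and its difference of 0.45 changes sign when the 5 h or the 10 h array is left out. Of the 8 glutaredoxin genes, 2, 3, 4 and 2 were at least 2-fold above the control at 2, 5, 10 and 24 h. Their median difference was 0.13, with 1 of 7 above and 2 below. That median was -0.30 when the 10 h array was left out and 0.74 when the 24 h array was.

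Genes of SA synthesis and signalling had a median difference of -0.10 over 24 genes, with 2 of 21 above (9.52%) and 4 below (19.0%). The synthesis gene ICS1, named EDS16 in the reference table, stood at 2.65 at 5 h alone, with 0.49, -0.21 and -0.37 at 2, 10 and 24 h. Its transporter partner EDS5 had 1.72, 2.63, 1.14 and 1.14. PAD4, a lipase-like regulator upstream of SA, peaked at 5 h as well (1.84, 3.49, 2.16 and 1.11). AT5G52810, known as SARD4 of pipecolic acid synthesis, was the 1 separated member, with 2.14 and 2.37 late and 3.66 and 4.31 early. Among 9 SA modification genes the median difference was 0.08, with 2 above and 1 below, and it moved to -0.85 on leaving out the 2 h array and to 0.37 on leaving out the 5 h array. The sulfotransferase gene SOT12, whose enzyme acts on SA, had 2.63, 4.89, 2.85 and 0.75, and the glucosyltransferase gene UGT74F2 had 3.93, 5.06, 4.31 and 2.99.

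WRKY factors, a family of 67 measured genes, had a median difference of 0.01, with 12 of 63 above (19.0%) and 7 below (11.1%). The members differed in time course. WRKY75 had 1.26, 2.34, 4.23 and 3.25 and WRKY60 had 0.01, 0.89, 2.45 and 1.64, while WRKY15 had 2.87, 2.55, 1.97 and 1.28. Immune receptor, MAP kinase and camalexin genes had a median difference of -0.07, with 5 of 21 above (23.8%) and 3 below (14.3%). Of the 22 members tested, 8 had a positive difference and 14 a negative one. The camalexin gene CYP71A13 had 0.09, 1.41, 3.34 and 2.29. The receptor kinase gene FRK1, a marker of pattern-triggered immunity, had -0.07, 0.70, 2.55 and 1.40. FRK1 had a surrogate value of the treated channel at 2 h and a dim control at 5 h. Lower late by their means were the camalexin gene PAD3 (2.22, 4.67, 4.22 and 0.97) and the MAP kinase gene MPK11 (1.72, 2.42, 1.70 and 0.98). Genes with CRK symbols, mostly cysteine-rich receptor kinases with a few calcium-dependent kinase relatives, had a median difference of 0.02, with 7 of 35 above (20.0%) and 2 below (5.71%). Their largest difference belonged to CRK21, with -0.69, -0.78, -2.36 and -1.69.

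The proteasome list, 52 genes for subunits of the complex that degrades ubiquitin-tagged proteins, had, among the lists, the highest share of members with both late ratios above both early ones. Its late medians were 0.66 and 0.53 (10 and 24 h) against early medians of -0.05 and 0.12 (2 and 5 h), a median difference of 0.52. Both late ratios were above both early ones in 28 of 51 members (54.9%) and below them in 0 of 51. The sizes were small, and no member was separated by 2-fold. PAA2 (AT2G05840), of the core ring, had -0.25, 0.07, 1.66 and 0.64, and PBD2, also of the core, had 0.36, 0.30, 1.26 and 1.02. RPT2a, an ATPase of the regulatory cap, had 0.00, 0.15, 1.29 and 0.66. The pattern did not rest on a single array: leaving out each array in turn gave median differences of 0.31 to 0.64. Without the 2 h array 31 of 51 members were above (24.0% of all probes) and 2 below (25.9%), and without the 10 h array 32 of 51 were above (36.2%) and 4 below (33.1%).

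**Figure D4:**
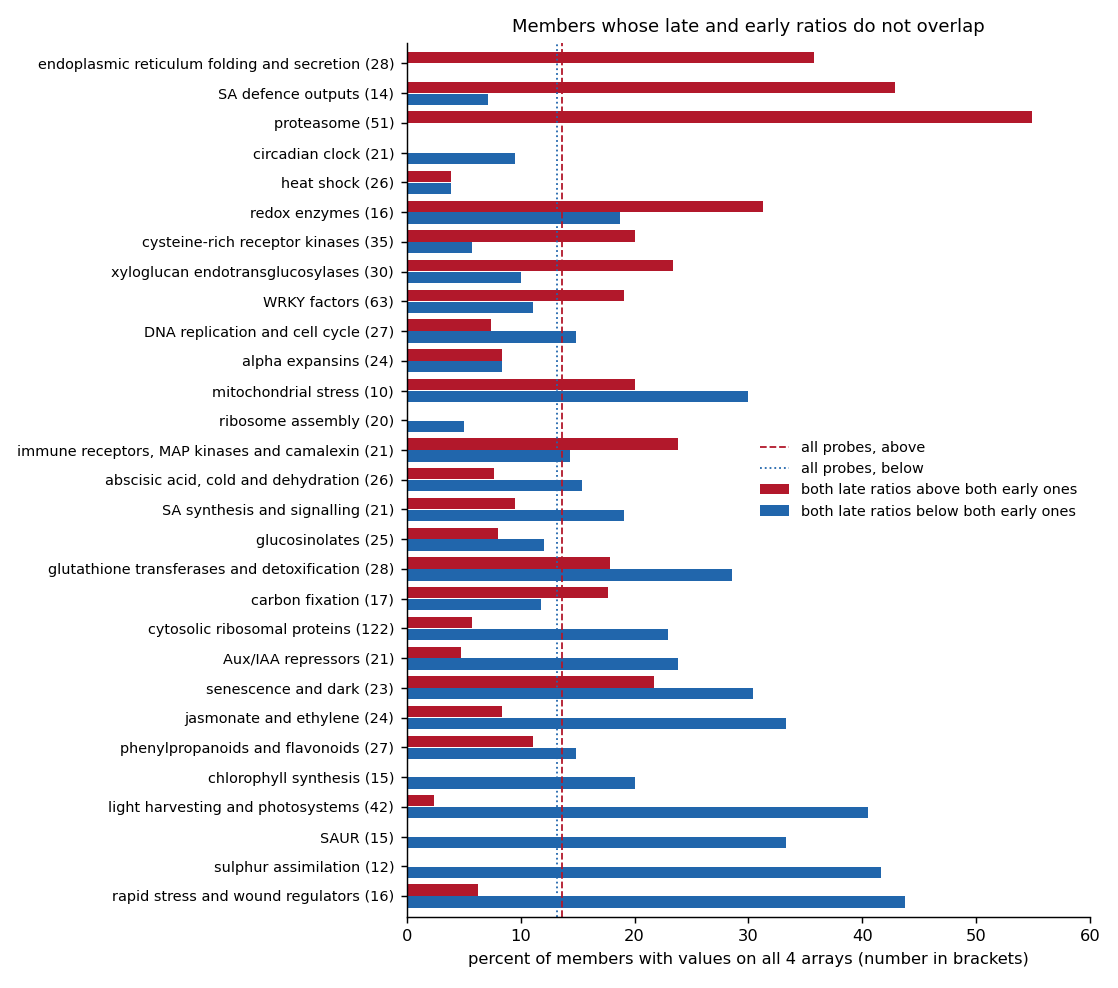
Percent of members with values on all 4 arrays whose 2 late ratios were both above (red) or both below (blue) the 2 early ratios, for lists with at least 10 such members, with the shares for all probes as dashed (13.6%) and dotted (13.2%) lines. The proteasome list reaches 54.9% above, and the rapid stress regulators, sulphur assimilation and light harvesting lists reach 43.75%, 41.7% and 40.5% below.

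Genes of protein folding and secretion in the endoplasmic reticulum had the highest median difference of all lists in use, 0.87 over 30 genes. The medians by time show a peak rather than a late plateau, with -0.01, 0.85, 1.54 and 0.47 at 2, 5, 10 and 24 h. The control was exceeded by at least 2-fold in 1, 13, 22 and 7 of the 30 at 2, 5, 10 and 24 h. Of 28 members 10 had both late ratios above both early ones (35.7%) and 0 had both below. PDIL2-2, a protein disulphide isomerase, had 2.93 and 2.15 late and -0.01 and 1.85 early. PDIL1-1 had -0.36, 0.18, 2.22 and 0.45. SHD, the HSP90 of this compartment, had -2.64, 0.20, 2.61 and -1.39, and its 10 h ratio alone lay above both early ones. The median difference was 0.26 if the 10 h array was left out and 0.27 if the 2 h array was.

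Rapid stress and wound regulators, transcription factors and other genes known to respond within the first hours of many stresses, were the list with the lowest median difference, -0.96 over 17 genes. Its medians were 2.92, 1.32, 1.50 and 0.89 at 2, 5, 10 and 24 h. Both late ratios were below both early ones in 7 of 16 members (43.75%) and above them in 1 (6.25%). Besides STZ, the ethylene response factor genes ERF-1 (5.82, 4.34, 3.97 and 3.45) and ERF104 (3.81, 1.32, 1.24 and 0.70) belong to this group. SZF1, a zinc finger gene, had 2.92, 1.11, 0.87 and 0.43, and the cell wall gene TCH4 had 3.84, 2.95, 2.32 and 1.75. In ERF104 and SZF1 the 2 h ratio stood apart from the other 3. Without the 2 h array the median difference was -0.38, with 8 of 16 below (25.9% of all probes) and 3 above (24.0%).

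Detoxification and redox genes were split between the 2 directions. Of 28 glutathione transferase and detoxification genes 5 were above (17.9%) and 8 below (28.6%), with a median difference of -0.11 and list medians of 1.12, 2.52, 2.51 and 1.53. The median difference was -0.67 once the 2 h array was dropped, -0.46 once the 10 h array was and 0.075 once the 24 h array was. Besides GSTF8 and OPR1, which were separated lower late, GSTU3 and GSTU10 were separated higher late. GSTU3 had 2.49 and 4.18 late and 0.09 and 0.50 early, with a dim or surrogate control at 2, 5 and 10 h, and GSTU10 had 0.02, 0.29, 1.29 and 1.50 with a dim control at 5 and 10 h. GSTU2, next to GSTU3 and similar to it, was separated too, but its control was not well above background at either late time and its values are bounds. Among 16 redox genes 5 were above (31.25%) and 3 below (18.75%). The thioredoxin gene TRX5 had 1.48, 2.67, 3.05 and 3.91, the superoxide dismutase gene CSD1 had 0.44, 1.04, 1.90 and 1.96, and the dehydroascorbate reductase gene DHAR2 had 3.23, 2.34, 1.88 and 1.22. Among 11 genes of mitochondrial stress, with a median difference of -0.03, the dicarboxylate carrier gene DIC2 was high at 2 h (3.73, 0.80, -0.12 and 0.14) and the alternative oxidase gene AOX1D was highest at 24 h (0.27, 0.65, 1.27 and 2.82). Heat shock genes had a median difference of 0.15 over 30 genes, with 1 of 26 above and 1 below, and this median ranged over left-out arrays between -0.39 (2 h left out) and 0.68 (24 h left out).

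Sulphur assimilation turns sulphate into cysteine and so into glutathione. Its 12 genes had late medians of 0.66 and 0.15 (10 and 24 h) against early ones of 0.75 and 1.08 (2 and 5 h), a median difference of -0.79. In 5 of 12 both late ratios were below both early ones (41.7%) and in 0 above. SERAT2;1, the plastid serine acetyltransferase of cysteine synthesis, had 0.76 and 0.69 late and 2.57 and 2.72 early, a difference of -1.92 ± 0.15 (SE). APS1, an ATP sulfurylase, had 1.24, 1.66, 0.21 and 0.07. APS3 had 1.28, 0.05, -1.10 and -0.45, the sulphur deficiency gene LSU2 had 1.26, 0.82, -0.28 and 0.08, and the reductase gene APR3 had 3.04, 3.55, 2.68 and 1.41. The vascular sulphate transporter gene SULTR2;1, which is not on the list, had -0.28, -0.42, -1.51 and -1.98. Leaving out each array in turn gave medians of -0.98 to -0.15.

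Lists of the chloroplast differed in direction, and several of their medians depended on the scaling. The 45 light harvesting and photosystem genes had medians of -0.03, -0.29, -0.90 and -0.59 at 2, 5, 10 and 24 h, a median difference of -0.44, with 17 of 42 below (40.5%) and 1 above (2.38%). At 2, 5, 10 and 24 h 0, 7, 20 and 1 of them were at least 2-fold below the control. NPQ4, the photosystem II subunit of energy dissipation, had 0.18, 0.13, -1.45 and -0.92, and LHCB2.3 is given above. In 18 of the 45 a channel was saturated on at least 1 array, which pulls ratios towards 0, and without the 10 h array the median difference was -0.30. Chlorophyll synthesis genes were below the control at every time (-0.95, -1.18, -1.51 and -1.50), with a median difference of -0.33 that turns to 0.27 when the arrays are scaled to equal spread. HEMA1, at the start of that pathway, had -1.85, -0.99, -2.10 and -2.02, and the sign of its difference changes under the same scaling. Of 6 chlorophyll breakdown genes 3 were above and 1 below, with a median difference of 0.42. With equal spread this median was smaller and lay below that of the synthesis list. ACD1, which opens the chlorophyll ring, had 0.17, 0.27, 0.66 and 1.33, and NYC1, a chlorophyll b reductase, was high at 10 h alone (-0.58, -0.66, 1.85 and -0.01). Carbon fixation genes (median difference -0.12 over 17 genes) and the 6 plastid sigma factors (0.15) had 3 of 17 and 1 of 6 above, and 2 of 17 and 0 of 6 below. In 6 of the 17 carbon fixation genes a channel was saturated, and their median difference was further below 0 with median centring.

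**Figure D5:**
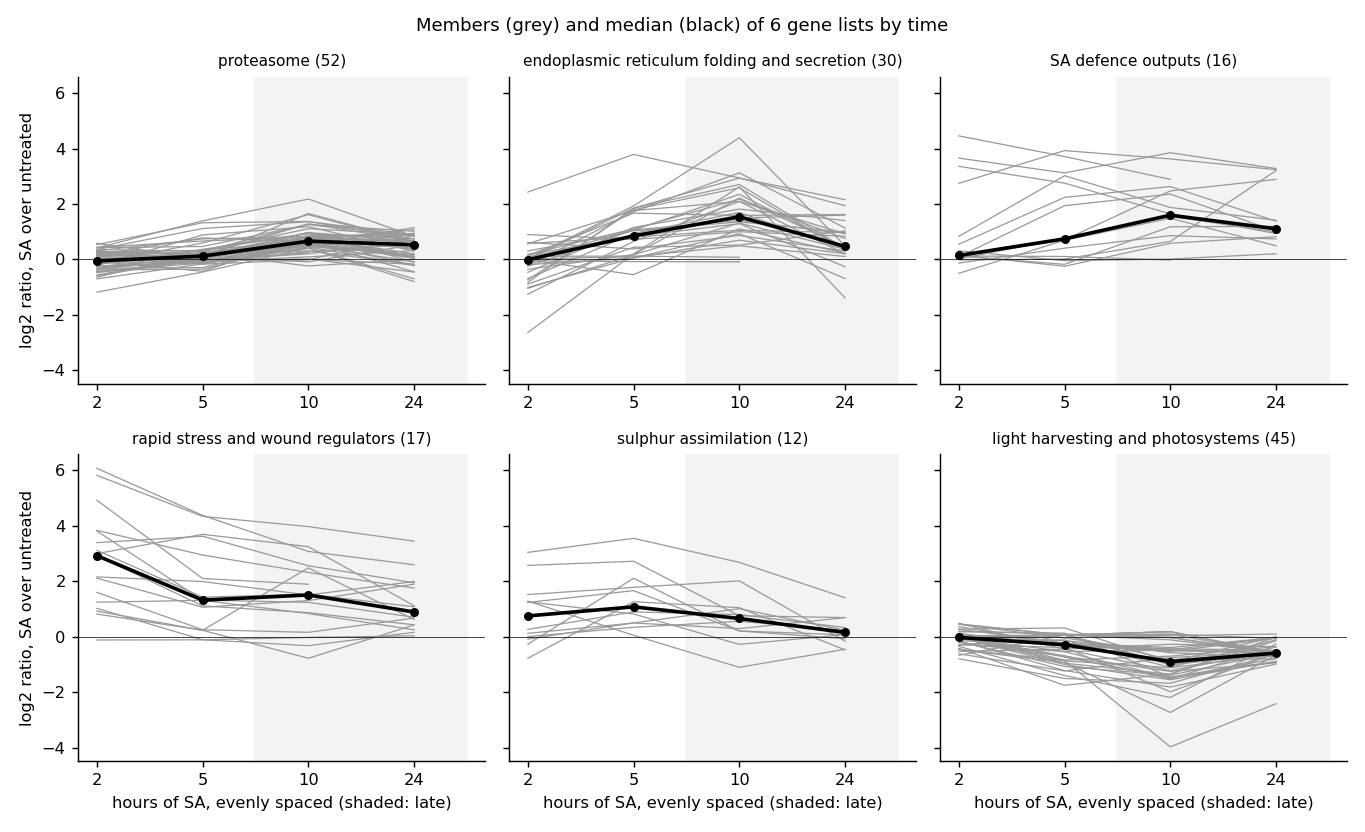
Log2 ratios of SA-treated over untreated plants at 2, 5, 10 and 24 h (horizontal axis, evenly spaced; late arrays shaded) for the members of 6 gene lists (grey lines) and their medians (black), with the number of genes in brackets. The endoplasmic reticulum list peaks at 10 h (median 1.54) and is at 0.47 at 24 h, while the proteasome medians are 0.66 and 0.53 at these times.

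Lists of other hormones had negative medians, though not under every alternative. Jasmonate and ethylene genes had a median difference of -0.19 over 27 genes, with 8 of 24 below (33.3%) and 2 above (8.33%). The list has 1 member separated higher late, PR4, and 1 separated lower late, TIFY7, both given above. The jasmonate synthesis genes OPR3 (2.43, 3.86, 2.75 and 1.0) and LOX3 (1.72, 0.66, 0.07 and 0.35) were lower late by their means, and the basic chitinase gene HCHIB reached 2-fold at 24 h alone (0.01, -0.01, 0.15 and 2.29). Genes of abscisic acid, cold and dehydration had a median difference of -0.09, with 4 of 26 below (15.4%) and 2 above (7.69%). The median was 0.11 without the 2 h array. Here the 2 h array stood apart from the other 3: COR15A, a cold-induced chloroplast protein gene, had 0.74, -2.75, -2.76 and -4.19 at the 4 times, and RD22 had 0.11, -1.15, -2.53 and -1.49. Of the 26 genes, 0, 10, 6 and 10 were at least 2-fold below the control at 2, 5, 10 and 24 h. Of 15 SAUR genes, small auxin-induced genes of cell expansion, 5 had both late ratios below both early ones (33.3%) and 0 above, with a median difference of -0.68. SAUR63 had -0.93, -0.92, -1.98 and -1.57, and members of the SAUR19 group are near-identical in sequence, so their signals are not independent. GH3.3, which conjugates auxin to amino acids, had 4.43, 3.71, 2.27 and 1.13. Aux/IAA repressors had a median difference of -0.15, with 5 of 21 below (23.8%) and 1 above (4.76%), led by IAA16 (1.05, 1.28, 0.61 and -0.35). The Aux/IAA median was slightly positive with the arrays scaled to equal spread.

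Cell wall families had medians near 0 and members that went both ways. Xyloglucan endotransglucosylases had a median difference of 0.02, with 7 of 30 above (23.3%) and 3 below (10.0%). XTH10 had 0.12, 1.65, 3.75 and 3.47, with a surrogate control at 2 h, while XTH18 had 0.74 and 0.48 late and 2.70 and 2.21 early, and XTH31 had -1.0, -1.81, -4.08 and -2.25. Alpha expansins had a median difference of -0.02, with 2 of 24 above and 2 below. The extensin gene EXT4 was separated higher late (-0.06, 1.39, 2.64 and 3.01) and the beta-xylosidase gene BXL2 lower (0.97, 0.83, -1.56 and -0.69).

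Senescence genes also split. Of 23 members 5 were above (21.7%) and 7 below (30.4%), and the median difference was -0.19 over 24 genes. The list medians were 0.77, 1.82, 2.03 and 1.64 at 2, 5, 10 and 24 h, and the difference was -0.54 with the 2 h array omitted and 0.08 with the 5 h array omitted. SAG21 was highest early (5.22, 5.62, 4.05 and 3.65), while NAC6, a regulator of leaf senescence also called ORE1, had -0.06, 1.30, 2.13 and 2.42, and SAG13 had 0.12, 2.17, 1.22 and 3.88. Glucosinolate genes had a median difference of -0.10, with 2 of 25 above (8.0%) and 3 below (12.0%). CYP81F2, of indole glucosinolates, had 0.53 and 0.31 late and 2.04 and 2.26 early, opposite to ESM1.

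Most clock genes did not follow the division into late and early times. LHY, a morning transcription factor of the clock, had -0.79, 1.2, -2.57 and 0.86 and GRP7 had 0.57, -1.57, 2.53 and -1.61 at 2, 5, 10 and 24 h, so that both alternated in sign from one time to the next. Over 22 clock genes the medians were 0.16, -0.18, 0.20 and -0.40 and the median difference was 0.15, with 0 of 21 above and 2 below. AT5G64170, with -0.85, -0.16, -1.37 and -1.91, was among those below. In flavonoid synthesis the 10 h array stood apart. Among 27 phenylpropanoid and flavonoid genes (median difference -0.28) 2, 1, 11 and 0 were at least 2-fold below the control at 2, 5, 10 and 24 h. TT4, chalcone synthase, had -0.69, 0.26, -3.54 and -0.10, and F3H had -0.46, 0.70, -2.63 and -0.05. The low late means of TT4 and F3H thus rest on 10 h alone, and TT4's difference of -1.61 turns to 0.11 without that array. The endoplasmic reticulum and light harvesting lists also had their largest values at 10 h. The part of the clock values in these results was not tested.

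Genes of translation and cell division had medians near 0. Cytosolic ribosomal proteins had a median difference of -0.14 over 126 genes, with 28 of 122 below (23.0%) and 7 above (5.74%). Without the 2 h array 57 of 121 were below (25.9% of all probes) and 9 above (24.0%), while without the 10 h array 45 of 123 were below (33.1%) and 40 above (36.2%). Ribosome assembly genes had -0.05 over 20 genes, with 0 above and 1 below, and leaving out single arrays gave -0.29 (2 h) to 0.21 (5 h). DNA replication and cell cycle genes had -0.01 over 27 genes, with 2 above and 4 below. TSO2, a ribonucleotide reductase subunit, had -0.16 and -0.23 late and -1.23 and -1.38 early.

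Families seen among the separated genes were then counted as wholes, a choice made after these values were seen. Of 126 protease genes of the kinds found in vacuole and cell wall, 38 had both late ratios above both early ones (30.2%) and 11 below (8.73%), with 5 separated higher and 1 lower. Class III peroxidases had 16 of 68 above (23.5%) and 9 below (13.2%), with 2 separated higher and 0 lower. NAC factors had 18 of 75 above (24.0%) and 13 below (17.3%), with 3 separated each way. Nitrate and ammonium transporters had 5 of 17 above (29.4%) and 6 below (35.3%). In that family NRT2.7, a nitrate transporter of the vacuole, had 2.64, 2.40, 0.57 and 0.06, and the ammonium transporter genes AMT2 (3.41, 3.25, 2.23 and 1.61) and AMT1;2 (0.62, 1.11, -1.97 and -0.60) were separated lower late as well. TIR-NBS resistance genes had 8 of 92 above (8.70%) and 8 below (8.70%), with 2 separated lower. Of 4 thionin genes, 2 were below, both of them separated and given above, and 0 above. The median difference was -0.84 for the thionins and between -0.10 and 0.04 for the other 5 families. Over left-out arrays it kept its sign in the thionins (-0.95 to -0.70) and the NAC factors (0.01 to 0.04). It changed sign in the peroxidases (-0.05 to 0.11), the proteases (-0.05 to 0.16), the nitrate and ammonium transporters (-0.16 to 0.02) and the TIR-NBS genes (-0.15 to 0.09).

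On the 2 overexpressor arrays, whose labels name no SA treatment, the separated genes had medians near 0, and single members lay further from it in line 2 than in line 1. The 48 genes higher late had median log2 ratios of 0.05 in line 1 (CA32F3) and 0.05 in line 2 (CA32F4), and the 73 lower late had -0.08 and 0.00, against 0.00 and -0.00 for 19521 probes. In line 1, 0 of the 48 were at least 2-fold higher and 1 lower, and 2 of the 73 were higher and 2 lower, against 33 (0.169%) and 17 (0.0871%) of the 19521 probes. In line 2, 5 of the 48 were higher and 3 lower, and 7 of the 73 were higher and 8 lower, against 370 (1.9%) and 466 (2.39%) of the 19521. A ratio of at least 2-fold, of equal sign in line 1 and line 2, was found in 20 probes higher (0.102%) and 11 lower (0.0563%) of the 19521. Among the separated genes these were AT3G15356 (1.90 and 2.16), AT1G13650 (-1.05 and -2.94), AED1 (-1.13 and -1.31) and THI2.2 (-1.23 and -3.49).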

How the data were processed

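Each sample was a 2-colour Agilent Arabidopsis 2 oligonucleotide array read with Agilent Feature Extraction, per the file headers. The deposited spot tables give the mean and local background intensity of each channel and a log10 ratio of Cy5 over Cy3 that the scanner software had dye-normalized. The authors also deposited a table of linear ratios, with no statement of how they were made. Dyes were not swapped. From the mean signals and local median backgrounds, normexp correction (offset 50) and loess within arrays were run in limma 3.58.1 (R 4.3.3), leaving out control spots and spots marked as outliers. A probe was tested if it had a value on at least 3 of the 4 SA arrays and was well above background in 1 channel on at least 2. Every probe met this mark on the 2 h array, so 1 of the other 3 was enough. Late minus early was fitted with lmFit and eBayes on the 4 arrays, and a call needed an adjusted p under 0.05 and 2-fold. The SEs use the moderated variance of that fit, which draws on all probes tested. The p-values measure the spread between times within a group, since nothing in the labels gives separate plants for a time.

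Of the probes, 21342 carry a single locus, and 21157 of the loci are in the RefSeq table that gave the symbols. Genes were named by separation (10 a direction), as up to 6 members a list, and as known SA markers, with further separated genes picked after their values were seen. The gene lists and the choice of groups were made with earlier results of these data known. Alternatives changed the normalization, background, filters, source of the ratios, variance model, and arrays. Figures were drawn with matplotlib 3.10.9.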

Additional observations from a re-analysis of the deposited data

Results flagged for a closer look

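MEE3, a gene for a small MYB protein, differed in direction between the late and the early arrays. Its mean log2 ratio was -1.66 at the late times, with -1.57 and -1.75 at 10 and 24 h, and 0.37 at the early times, with 0.30 and 0.45 at 2 and 5 h. The difference was -2.03. All 4 ratios were more than 0.25 from 0 on the log2 scale, both late ones below it and both early ones above it. MEE3 was not the only such gene. Other separated genes had late and early ratios on opposite sides of 0 by this margin, among them BXL2 and AMT1;2 (below 0 late) and APA1 and SWEET11 (above 0 late). The difference of MEE3 did not pass limma's test after Benjamini-Hochberg adjustment over all probes.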

How the results depend on the processing

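The limma test called 0 probes under every alternative tried, with 264 to 1558 probes at an unadjusted p under 0.05 and a smallest adjusted p of 0.378, reached with the arrays scaled to equal spread. Separated probes numbered 25 higher late and 236 lower with equal spread, 69 and 135 from the scanner software's own ratios, and 20 and 69 with a net signal of at least 100 on all 4 arrays, where 6372 probes were tested. Other alternatives with 4 arrays gave 38 to 58 higher late and 73 to 102 lower. Of the 48 and 73 separated probes, 14 and 59 were also separated with equal spread. Leaving out each array in turn gave 127 to 352 probes higher late and 204 to 384 lower. A lone array was then assumed to vary like the pair of the other group. No paired analysis was possible because each time has 1 array and the labels give no replicate numbers. The 2 h array was dimmest, which limits what can be read for dim genes there.

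List medians moved as follows, and the cause was not tested. Scaling the arrays to equal spread gave -0.0067 (SA defence outputs), -0.47 (immune receptors, MAP kinases and camalexin), -0.75 (mitochondrial stress), -2.02 (rapid stress and wound regulators), -0.39 (jasmonate and ethylene), -0.78 (senescence and dark), 0.26 (glucosinolates), -1.21 (sulphur assimilation) and 0.27 (chlorophyll synthesis). The same setting also gave 0.068 (chlorophyll breakdown), 0.74 (plastid sigma factors), -0.069 (WRKY factors), 0.38 (proteasome), 0.011 (Aux/IAA repressors) and -0.19 (SAUR). Median centring in place of loess gave -0.077 (redox enzymes), -0.82 (carbon fixation), -0.58 (chlorophyll synthesis), -0.92 (shoot markers), -0.15 (flower markers), -0.22 (seed markers) and -0.99 (light harvesting and photosystems). Asking for a net signal of at least 100 on all 4 arrays gave -0.62 (SA synthesis and signalling), 0.17 (SA defence outputs), -0.22 (immune receptors, MAP kinases and camalexin), -0.77 (mitochondrial stress), -0.33 (jasmonate and ethylene), -1.14 (sulphur assimilation), -0.67 (circadian clock), 0.27 (DNA replication and cell cycle) and -0.41 (WRKY factors). The same setting also gave -0.26 (Aux/IAA repressors), 0.61 (alpha expansins) and 0.12 (xyloglucan endotransglucosylases). The scanner software's own ratios gave -0.34 (immune receptors, MAP kinases and camalexin), -0.49 (mitochondrial stress), -0.35 (jasmonate and ethylene), -0.29 (carbon fixation), 0.31 (DNA replication and cell cycle), -0.19 (root markers), 0.0087 (flower markers), -0.066 (WRKY factors) and -0.034 (Aux/IAA repressors). The deposited ratio table gave 0.19 (SA defence outputs), 0.018 (flower markers) and 0.0025 (seed markers). A normexp offset of 16 gave -0.23 (immune receptors, MAP kinases and camalexin) and -0.18 (root markers). A slope on log2 hours, scaled to the late minus early span, gave 0.21 (redox enzymes), -0.35 (abscisic acid, cold and dehydration), 0.019 (flower markers) and 0.38 (proteasome). Leaving out each array in turn gave median differences of -0.42 to 0.14 (SA synthesis and signalling), 0.23 to 1.0 (SA defence outputs), -0.23 to 0.12 (immune receptors, MAP kinases and camalexin), -0.074 to 0.25 (redox enzymes), -0.60 to 0.12 (mitochondrial stress), -0.64 to 0.11 (abscisic acid, cold and dehydration), -0.32 to -0.15 (glucosinolates) and -0.73 to 0.11 (phenylpropanoids and flavonoids). It also gave -0.98 to -0.15 (sulphur assimilation), -0.25 to 0.079 (carbon fixation), -0.52 to -0.042 (chlorophyll synthesis), 0.20 to 0.66 (chlorophyll breakdown), -0.38 to 0.55 (plastid sigma factors), -0.16 to 0.63 (circadian clock), -0.18 to -0.028 (DNA replication and cell cycle) and -0.48 to 0.079 (shoot markers). Further ranges were -0.24 to 0.045 (root markers), -0.067 to 0.050 (flower markers), 0.011 to 0.12 (seed markers), -0.0039 to 0.098 (WRKY factors), -0.028 to 0.17 (cysteine-rich receptor kinases), 0.31 to 0.64 (proteasome), -0.72 to -0.26 (light harvesting and photosystems) and -0.28 to -0.025 (cytosolic ribosomal proteins). The remaining ranges were -0.24 to -0.017 (Aux/IAA repressors), -1.02 to -0.26 (SAUR) and -0.14 to 0.15 (xyloglucan endotransglucosylases). Among named genes the difference changed sign for HEMA1 (0.29) with equal spread, for WRKY70 with equal spread (-0.87) and as a slope (-0.41), for LHY (0.35) and GRP7 (-0.60) as a slope, and for BGL2 (0.32) with median centring. Without the 10 h array it changed sign for LHY (0.65), GRP7 (-1.11), WRKY70 (-0.65), BGL2 (0.072), SHD (-0.17) and TT4 (0.11), without the 5 h array for GRP7 (-0.11) and WRKY70 (-0.22), and without the 2 h array for BGL2 (0.15). Over all 4 left-out arrays the ranges were -2.77 to 0.65 (LHY), -1.11 to 3.03 (GRP7), -0.65 to 1.56 (WRKY70), -0.20 to 0.15 (BGL2), -0.17 to 3.83 (SHD) and -3.32 to 0.11 (TT4).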
